A study of Mus musculus with 9 samples.

Results

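The genes described here encode glycoproteins of elastic fibres and of the interstitial matrix, together with the enzymes that cross-link or process that matrix. The list names 39 genes: fibronectin and tenascins, the SPARC and thrombospondin families, fibulins, the elastin and fibrillin scaffold, latent TGF-beta binding proteins, lysyl oxidases and a few further matrix proteins. Members were found as the rows of the expression table that carry exactly 1 gene symbol equal to a listed name. Of the 39 genes, 37 had such a row, out of 19938 genes and 21789 rows with a single symbol in the whole table. Loxl2 was present only in a row that names several genes, and Efemp2 had no row of its own, so neither has a value here. Hmcn1 had 77 rows and Loxl4 had 2. Each gene is described through the row whose mean over all arrays was highest.

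The study profiled mouse bone marrow stromal cells on Affymetrix Mouse Gene ST arrays, 9 arrays in 4 groups, all labelled as strain C57Bl/6J and as young adults. The YFP-positive group (3 arrays) held cells negative for CD45 and lineage markers and positive for YFP, CD54 and BP1, from mice whose genotype is given as IL7-Cre transgenic and Rosa-eYFP heterozygous. The wild-type group (3 arrays) held cells of the same CD45-negative, lineage-negative, CD54+ BP1+ gate from mice without the reporter. The YFP-negative group (1 array, 2300 cells) held the CD54+ BP1+ cells of the reporter mice that lacked YFP, and total marrow from wild-type mice (2 arrays, 10 ng of RNA) served as control. Other sorted samples held 1800 to 10000 cells. Mice of all 3 sorted groups were 6 to 12 weeks old, and no age in weeks is listed for total marrow. Cre in these mice follows the Il7 gene, and a Rosa-eYFP reporter stays on once recombined, so YFP marks cells in which that Cre is or has been active. No label says that the arrays of a group are different mice, so every p-value here rests on sample-to-sample spread that could be technical.

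Elastic fibres consist of a core of cross-linked elastin on a scaffold of fibrillin microfibrils. Fibulins and EMILINs sit at the interface of core and scaffold, lysyl oxidases cross-link elastin and collagen, and latent TGF-beta binding proteins tie inactive TGF-beta to the microfibrils. Fibronectin, tenascins, SPARC and thrombospondins belong to the interstitial matrix or bind to it and modulate cell attachment. In bone marrow the stromal reticular cells are a main source of this matrix, while macrophages, megakaryocytes and platelets make or carry some of the same proteins.

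The promoters of 4 members are shown because these genes differed widely from total marrow: Tnc, Pcolce and Fbln5 were among those far above it, and Emilin2 was below it in both sorted groups. Each sequence holds the 250 bases before the gene's start in the RefSeq table (GRCm38.p6), read 5′ to 3′ on the gene's strand. Tnc, Fbln5 and Emilin2 have 2 starts in the table and the first is shown. Capitals mark matches on either strand to any of 5 motifs: the TATA box TATAAA, the CCAAT box CCAAT, the GC box GGGCGG, the AP-1 site TGANTCA and the EBF core CCCNNGGG.
Tnc chr4:64047016-64047265, minus strand: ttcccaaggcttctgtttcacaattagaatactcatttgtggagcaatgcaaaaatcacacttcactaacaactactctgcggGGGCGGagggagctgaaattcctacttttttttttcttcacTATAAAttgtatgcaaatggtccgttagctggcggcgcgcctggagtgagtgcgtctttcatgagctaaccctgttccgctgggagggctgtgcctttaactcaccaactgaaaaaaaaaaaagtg
Pcolce chr5:137611405-137611654, minus strand: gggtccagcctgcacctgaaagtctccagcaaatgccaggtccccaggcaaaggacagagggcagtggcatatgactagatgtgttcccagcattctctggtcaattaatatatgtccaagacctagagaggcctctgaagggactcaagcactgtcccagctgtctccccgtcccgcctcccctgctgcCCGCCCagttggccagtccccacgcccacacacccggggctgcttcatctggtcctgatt
Fbln5 chr12:101819120-101819369, minus strand: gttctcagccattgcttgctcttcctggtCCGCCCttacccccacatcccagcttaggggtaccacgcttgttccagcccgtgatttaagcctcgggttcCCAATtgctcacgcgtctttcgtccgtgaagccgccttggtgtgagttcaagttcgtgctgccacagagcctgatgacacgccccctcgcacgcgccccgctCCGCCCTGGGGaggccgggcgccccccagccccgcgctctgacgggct
Emilin2 chr17:71311557-71311806, minus strand: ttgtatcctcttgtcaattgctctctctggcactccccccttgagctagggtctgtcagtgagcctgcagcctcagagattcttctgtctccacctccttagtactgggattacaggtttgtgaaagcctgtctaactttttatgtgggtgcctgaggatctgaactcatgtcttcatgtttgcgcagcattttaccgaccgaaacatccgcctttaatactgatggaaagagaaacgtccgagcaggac
Of the 39 genes, 26 had an entry in the promoter table. Each of these was counted by its first start only, while the share of all windows counts every start of every gene. The GC box was found in 14 of these 26 (53.8%), against 32.7% of all 32851 windows of this length. Tnc and Pcolce held 1 each and Fbln5 held 2, of which the one nearer the start overlaps the only EBF core of the 4 sequences. A TATA box was found in 3 members (11.5%, against 12.4% of all windows), namely Tnc, Thbs2 and Ecm1. CCAAT stood in 9 members (34.6%, against 33.8%), the AP-1 site in 3 (11.5%, against 6.75%) and the EBF core in 2 (7.69%, against 11.8%). The Emilin2 window held none of these letters. A match describes the sequence and is not a measured binding site.

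The deposited values are log2 signals, and they were compared with limma in 1 fit over the 9 arrays. A row was called where its Benjamini-Hochberg adjusted p over the 21789 rows was under 0.05. Changes are log2 differences with the SE of the fit. The median of all deposited values was 4.43: where only the lower group stood below it, a difference is read as a lower bound, and where both groups did, its size is left unresolved. This mark is a convention, and the detection limit was not measured. Array medians ran from 4.51 to 4.60 except for the YFP-negative array, at 3.46, so comparisons with that array were made after cyclic loess normalization of the 9 arrays. All 10 measured reticular stromal markers were called higher in each sorted group than in total marrow. Their mean deposited level was 10.5 to 10.8 in the YFP-positive arrays, 10.6 to 10.7 in the wild-type arrays and 3.98 to 4.08 in total marrow. Osteoblast markers were called higher for 5 of 6 in YFP-positive and 6 of 6 in wild-type cells, with mean levels of 7.67 to 8.16, 8.002 to 8.18 and 3.87 to 4.05 in the 3 groups, and their part in the member differences was not tested.

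Most of the measured matrix genes were called higher in the sorted stromal cells than in total marrow. Of 37 measured members, 23 were called higher in YFP-positive cells, against 11% of all rows, and 2 were called lower, against 18.5%. In the wild-type gate 20 were called higher, against 10.4% of all rows, and 1 was called lower, against 13.9%. Members exceeded total marrow by a median of 1.58 (YFP-positive) and 2.02 (wild type), while the median over all rows was 0.09 and 0.00. Tnc, Pcolce, Fbln5 and Lox each stood more than 6 log2 units above total marrow in both groups. For 11 of the 23 genes called higher in YFP-positive and 9 of the 20 in wild-type cells, Tnc and Lox among them, the total-marrow signal lay below 4.43 and the difference is a lower bound. Emilin2 went the other way in both, and Fn1 was called lower in YFP-positive cells alone. Both comparisons share the same 2 total-marrow arrays. Of the calls in YFP-positive cells 20 of 25, and of those in wild-type cells 21 of 21, held under every alternative that was run. In bulk samples, fewer cells of a type and less RNA per cell cannot be told apart.

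Lists of blood cell markers moved with these differences in the opposite direction. Neutrophil markers were called lower in YFP-positive than in total marrow for 9 of 11 genes measured and in wild-type cells for 10 of 11, with a mean level of 4.20 to 6.36, 3.89 to 4.99 and 11.6 to 11.7 in the 3 groups. Monocyte and macrophage markers were called lower for 7 of 8 (1 higher, Vcam1) in either sorted group, with mean levels of 5.05 to 5.77, 4.81 to 5.08 and 8.42 to 8.67. B lineage markers were called lower for 6 of 7 (1 higher) and erythroid markers for 5 of 5 in either group, with mean levels of 4.71 to 5.17, 4.75 to 5.20 and 9.21 to 9.23, and of 3.83 to 4.60, 4.07 to 5.32 and 8.35 to 8.74. Megakaryocyte and platelet markers were called lower for 4 of 4, with mean levels of 3.62 to 4.03, 3.69 to 3.79 and 6.70 to 6.81. Their part in the member differences was not tested.

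**Figure D1:**
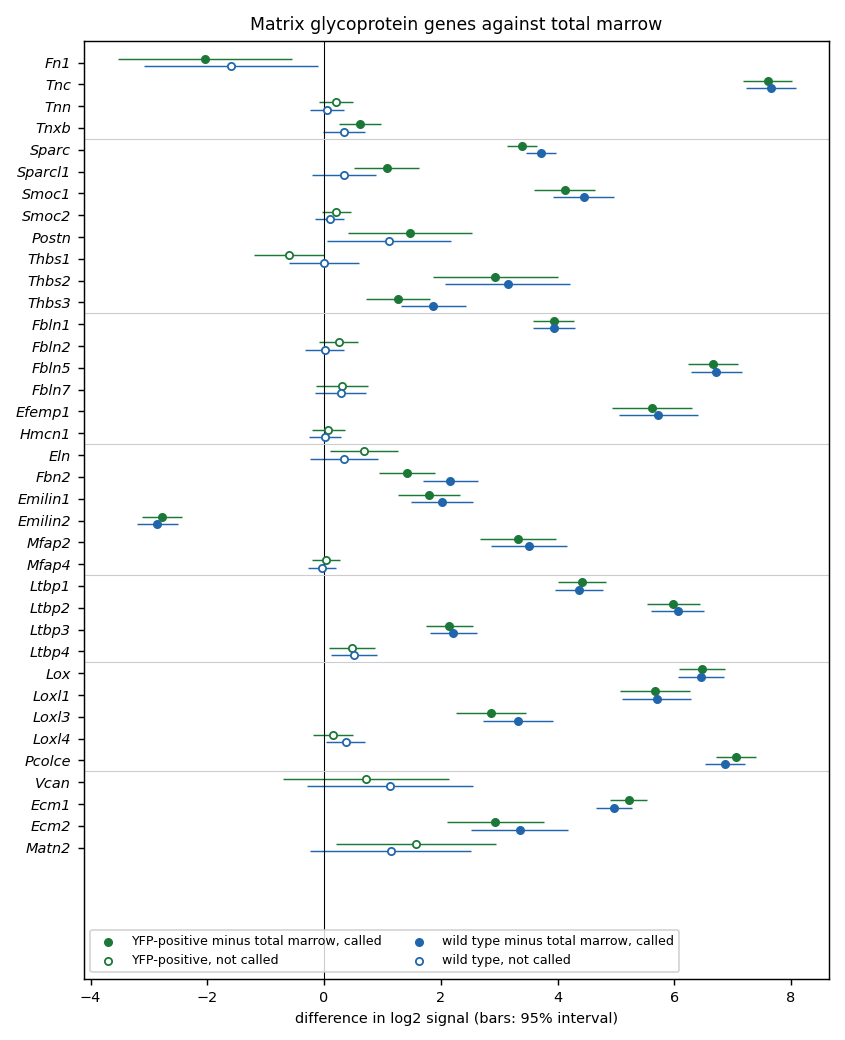
Difference in deposited log2 signal from total marrow for the 37 measured members, grouped by role, with 95% intervals; green marks YFP-positive and blue wild-type cells, and filled points were called by limma (adjusted p under 0.05). Most points lie right of 0, those of Tnc beyond 7, and the points of Emilin2 lie near −2.8.

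Fibronectin and the tenascins divided. Tnc encodes tenascin-C, a matricellular protein of developing and remodelling tissue. Its signal was 11.32, 11.36 and 11.29 in the YFP-positive arrays, 11.21, 11.37 and 11.55 in the wild-type arrays and 3.998 and 3.45 in total marrow. All 6 sorted arrays thus spanned 0.33 and stood far above both controls, by 7.60 ± 0.18 (SE; adjusted p = 1.77e-07) in YFP-positive and 7.66 ± 0.18 (SE; adjusted p = 1.50e-07) in wild-type cells, a fold of 194 and 202 on this scale, both lower bounds. Fn1, fibronectin, which assembles into fibrils through integrins, gave 6.02, 6.59 and 8.42 in the YFP-positive arrays, 7.002, 7.44 and 7.94 in the wild-type arrays and 9.03 and 9.08 in total marrow. Every sorted array lay below both total-marrow arrays, but the YFP-positive arrays spanned 2.40 log2 units, with replicate 3 highest. Fn1 was called lower, at −2.04 ± 0.64 (SE; adjusted p = 0.0475), in YFP-positive cells, while the wild-type difference of −1.59 ± 0.64 was not called (adjusted p = 0.127; 95% interval −3.08 to −0.10).

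The Fn1 calls rested on single arrays. Without either total-marrow array, any wild-type array, or YFP-positive replicate 1 or 2, Fn1 was no longer called in YFP-positive cells: the difference was −1.55 (adjusted p = 0.088) without YFP-positive replicate 1, −1.83 (0.106) without replicate 2, and −2.07 and −2.02 (0.185 and 0.178) without total-marrow replicate 1 or 2. Leaving out wild-type replicate 1, 2 or 3 left it at −2.04, with adjusted p of 0.0651, 0.0753 and 0.0624. Without YFP-positive replicate 3, the array with the lowest quality weight (0.311), the wild-type difference in Fn1 was called lower (−1.59, adjusted p = 0.00749). Neutrophil markers had their lowest mean among the YFP-positive arrays (4.20) in the same replicate 3 in which Fn1 was highest, and the part of neutrophil markers in the Fn1 values was not tested. Tnxb, tenascin-X, which organises collagen fibrils, gave 3.97, 4.13 and 4.36 in the YFP-positive arrays, 3.98, 3.71 and 3.96 in the wild-type arrays and 3.58 and 3.50 in total marrow. It was called higher in YFP-positive cells (0.61 ± 0.15 SE, adjusted p = 0.0205), but both group means lay below the median of all values, so the size is not resolved, and without total-marrow replicate 1 or 2 the adjusted p was 0.092 and 0.119. Tnn, the bone-associated tenascin-N, stayed between 3.29 and 3.68 in these 8 arrays and was not called.

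Among the matricellular genes, 6 of 8 were called higher in YFP-positive cells and 4 of 8 in the wild-type gate, beside 11% and 10.4% of all rows. Sparc, a collagen-binding protein abundant in bone, gave 12.18, 12.08 and 11.99 in the YFP-positive arrays, 12.40, 12.46 and 12.34 in the wild-type arrays and 8.68 and 8.69 in total marrow. Total marrow itself held a signal well above the median of all values for Sparc, and the sorted arrays lay 3.40 ± 0.11 and 3.71 ± 0.11 above it (adjusted p = 4.73e-07 and 2.94e-07), a fold of 10.5 and 13.1. Smoc1, a calcium-binding SPARC relative that acts on BMP signalling, gave 8.76, 8.24 and 8.23 in the YFP-positive arrays, 8.81, 8.95 and 8.45 in the wild-type arrays and 4.11 and 4.47 in total marrow, a difference of 4.12 ± 0.23 and 4.45 ± 0.23 (adjusted p = 6.41e-06 and 3.99e-06). Its relative Smoc2 stayed between 3.68 and 4.01 in these 8 arrays and was not called in either comparison.

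Sparcl1, also called hevin, gave 4.70, 4.39 and 5.26 in the YFP-positive arrays, 4.08, 4.002 and 4.08 in the wild-type arrays and 3.61 and 3.82 in total marrow. Its YFP-positive arrays ranked above the wild-type arrays, but the difference between these groups was not called. It was called against total marrow in YFP-positive cells (1.07 ± 0.24 SE, adjusted p = 0.0117), a call lost without total-marrow replicate 1 (0.97, adjusted p = 0.0969), and not in wild-type cells (0.34, 95% interval −0.21 to 0.89). Postn, periostin, a tenascin-C binding protein of periosteum and connective tissue, gave 4.10, 5.88 and 4.93 in the YFP-positive arrays, 4.33, 4.56 and 4.94 in the wild-type arrays and 3.56 and 3.43 in total marrow. All sorted arrays stood above both controls, but YFP-positive replicates 1 and 2 were 1.78 apart. The Postn difference was 1.48 ± 0.46 (SE; adjusted p = 0.0454) in YFP-positive cells and 1.12 ± 0.46 in wild-type cells, where it was not called (adjusted p = 0.133).

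The Postn call in YFP-positive cells was lost after cyclic loess, after quantile normalization, with replicate number as a block and with only the arrays of both groups. It also did not survive the removal of most arrays. The adjusted p was 0.0839 without YFP-positive replicate 3, 0.0648, 0.0724 and 0.0605 without wild-type replicate 1, 2 or 3, and 0.167 and 0.184 without total-marrow replicate 1 or 2, with differences of 1.41 to 1.54. Conversely Postn was called in wild-type cells at an unchanged 1.12 when YFP-positive replicate 1 or 2 was left out (adjusted p = 0.0361 and 0.028).

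The thrombospondins bind cell receptors and matrix, and thrombospondin-1 also activates latent TGF-beta. Thbs2 gave 7.59, 7.37 and 5.93 in the YFP-positive arrays, 7.37, 7.31 and 6.85 in the wild-type arrays and 4.02 and 4.04 in total marrow, and Thbs3 gave 5.12, 5.36 and 5.39 in the YFP-positive arrays, 5.52, 5.83 and 6.34 in the wild-type arrays and 4.14 and 3.90 in total marrow. Both were above total marrow in every sorted array, Thbs2 by 2.93 ± 0.46 and 3.14 ± 0.46 (adjusted p = 0.00221 and 0.00157) and Thbs3 by 1.27 ± 0.24 and 1.87 ± 0.24 (adjusted p = 0.00542 and 7.39e-04), although Thbs3 in YFP-positive cells was at 1.15 with an adjusted p of 0.0509 without total-marrow replicate 2. Thbs1, which platelets also carry, gave 8.13, 8.998 and 8.30 in the YFP-positive arrays, 9.23, 8.85 and 9.16 in the wild-type arrays and 9.03 and 9.14 in total marrow. It was called in neither comparison (−0.61, 95% interval −1.21 to −0.01, and 0.00, −0.61 to 0.60). Without YFP-positive replicate 2 Thbs1 was called lower in YFP-positive cells (−0.87, adjusted p = 0.0098).

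**Figure D2:**
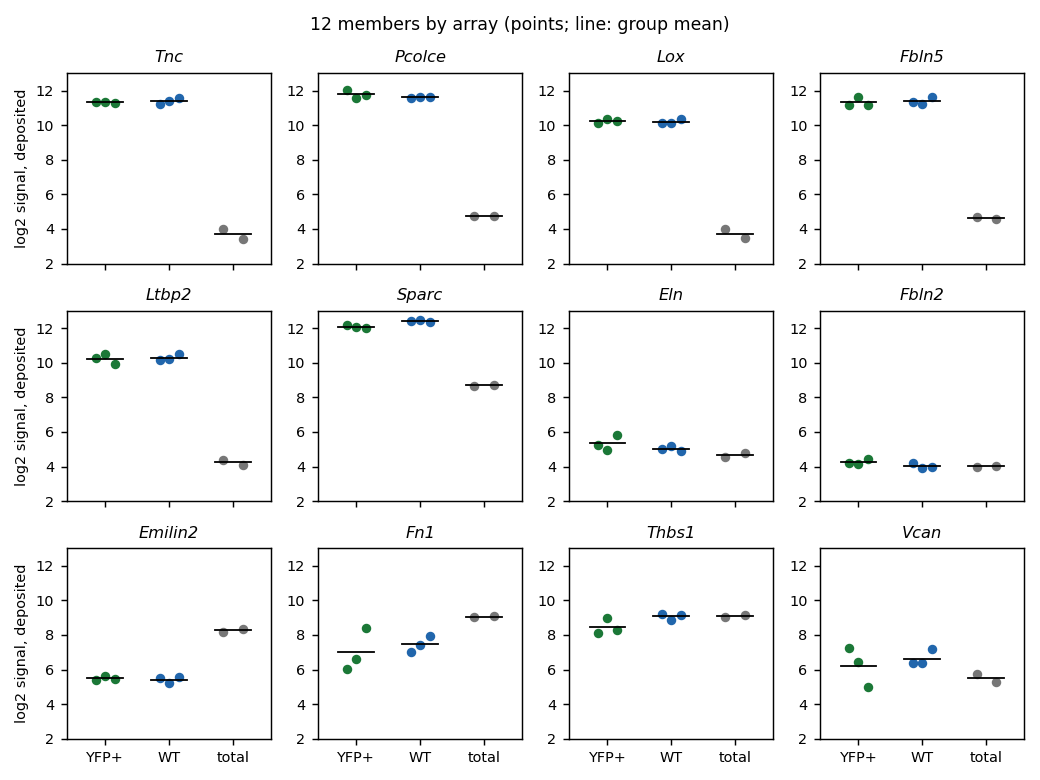
Deposited log2 signal of 12 members in each array, as points with a line at the group mean (3 YFP-positive, 3 wild-type and 2 total-marrow arrays); the 12 were picked after their values were seen to show the range of patterns. Tnc, Pcolce, Lox, Fbln5 and Ltbp2 separate without overlap between sorted cells and total marrow, Fbln2 stays near 4 throughout, and Fn1 and Vcan spread widely among the YFP-positive arrays.

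Of the 6 fibulins measured, 3 were called higher in both sorted groups and 3 in neither, where 11% (YFP-positive) and 10.4% (wild type) of all rows were. Fbln5, fibulin-5, which is required for elastic fibre assembly and binds elastin and lysyl oxidase-like 1, gave 11.18, 11.60 and 11.16 in the YFP-positive arrays, 11.31, 11.21 and 11.62 in the wild-type arrays and 4.72 and 4.59 in total marrow. Efemp1, fibulin-3, gave 8.998, 9.29 and 8.55 in the YFP-positive arrays, 9.41, 9.19 and 8.57 in the wild-type arrays and 3.43 and 3.22 in total marrow. Fbln1, a fibulin of basement membranes and elastic tissue, gave 8.46, 8.30 and 8.31 in the YFP-positive arrays, 8.46, 8.25 and 8.39 in the wild-type arrays and 4.22 and 4.64 in total marrow. All 3 stood above total marrow in every sorted array, Fbln5 by 6.66 ± 0.18 and 6.72 ± 0.18 (adjusted p = 2.58e-07 and 2.29e-07), a fold of 101 and 106. Efemp1 differed by 5.62 ± 0.29 and 5.73 ± 0.29 and Fbln1 by 3.93 ± 0.15 and 3.94 ± 0.15, with adjusted p between 9.31e-07 and 4.73e-06. Fbln2, fibulin-2, stayed between 3.91 and 4.44 and Fbln7 between 4.18 and 4.84 in the 8 arrays, and neither was called. Hmcn1, hemicentin-1, a very large relative of the fibulins, stayed between 4.60 and 4.82 in its highest row and was not called there.

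In the elastic fibre scaffold, 3 of 6 measured genes were called higher and 1 lower in each comparison, and elastin was not called. Over all rows, 11% (YFP-positive) and 10.4% (wild type) were called higher and 18.5% and 13.9% lower. Eln, tropoelastin, gave 5.25, 4.97 and 5.85 in the YFP-positive arrays, 4.99, 5.19 and 4.88 in the wild-type arrays and 4.55 and 4.80 in total marrow. All sorted arrays exceeded both controls, but the differences of 0.68 (95% interval 0.10 to 1.27; adjusted p = 0.0815) and 0.35 (−0.24 to 0.93; 0.439) missed the threshold. Without YFP-positive replicate 2, Eln was called higher in YFP-positive cells (0.87, adjusted p = 0.031). Mfap2, the microfibril glycoprotein MAGP-1, gave 8.52, 8.52 and 9.41 in the YFP-positive arrays, 9.15, 8.86 and 9.01 in the wild-type arrays and 5.35 and 5.63 in total marrow. Fbn2, fibrillin-2, the microfibril protein prominent in development, gave 5.62, 6.04 and 5.97 in the YFP-positive arrays, 6.35, 6.55 and 6.95 in the wild-type arrays and 4.47 and 4.45 in total marrow. Emilin1, which sits between elastin and microfibrils, gave 6.99, 7.08 and 6.44 in the YFP-positive arrays, 6.92, 6.92 and 7.35 in the wild-type arrays and 5.12 and 4.97 in total marrow. These 3 microfibril and interface genes exceeded total marrow in every sorted array, Mfap2 by 3.32 ± 0.28 and 3.51 ± 0.28, Fbn2 by 1.42 ± 0.20 and 2.16 ± 0.20, and Emilin1 by 1.79 ± 0.23 and 2.02 ± 0.23, with adjusted p between 4.96e-05 and 0.00136. Mfap4, a fibrinogen-related microfibril protein, stayed between 3.04 and 3.20 and was not called.

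Emilin2, the close relative of Emilin1, was the scaffold gene called lower. Its signal was 5.42, 5.64 and 5.44 in the YFP-positive arrays, 5.48, 5.20 and 5.56 in the wild-type arrays and 8.19 and 8.35 in total marrow. All 6 sorted arrays fell below both controls, with a difference of −2.77 ± 0.15 (SE; adjusted p = 5.39e-06) in YFP-positive and −2.85 ± 0.15 (SE; adjusted p = 4.19e-06) in wild-type cells, so that total marrow held 6.83 and 7.23 times the signal. Emilin2 was the only member called lower in both comparisons, and it kept that call under all 4 scalings and without each array in turn.

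Latent TGF-beta binding proteins anchor the latent growth factor in the matrix, except LTBP-2, which does not bind TGF-beta but binds fibrillin. Ltbp2 gave 10.25, 10.48 and 9.94 in the YFP-positive arrays, 10.18, 10.19 and 10.52 in the wild-type arrays and 4.38 and 4.10 in total marrow. Ltbp1 gave 9.15, 9.07 and 8.59 in the YFP-positive arrays, 8.92, 8.78 and 8.94 in the wild-type arrays and 4.54 and 4.49 in total marrow, and Ltbp3 gave 7.67, 7.90 and 7.81 in the YFP-positive arrays, 7.96, 7.78 and 7.85 in the wild-type arrays and 5.38 and 5.91 in total marrow. These 3 were higher in every sorted array than in either control: Ltbp2 by 5.99 ± 0.20 and 6.06 ± 0.20, Ltbp1 by 4.42 ± 0.18 and 4.37 ± 0.18, and Ltbp3 by 2.15 ± 0.17 and 2.22 ± 0.17, with adjusted p between 4.12e-07 and 5.83e-05. Ltbp4, which directs elastin deposition, gave 4.48, 4.42 and 4.48 in the YFP-positive arrays, 4.22, 4.50 and 4.76 in the wild-type arrays and 3.88 and 4.08 in total marrow. Its differences of 0.48 and 0.51 (95% intervals 0.09 to 0.87 and 0.12 to 0.90) were not called (adjusted p = 0.0679 and 0.0646). Without wild-type replicate 1, Ltbp4 was called higher in both comparisons (0.48 and 0.65, adjusted p = 0.0423 and 0.0243), and without wild-type replicate 3 in YFP-positive cells (0.48, adjusted p = 0.043).

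Of the 5 measured genes of cross-linking and collagen processing, 4 were called higher in both sorted groups, where 11% (YFP-positive) and 10.4% (wild type) of all rows were. Lox, lysyl oxidase, which starts the cross-links of collagen and elastin, gave 10.11, 10.34 and 10.22 in the YFP-positive arrays, 10.14, 10.13 and 10.33 in the wild-type arrays and 3.98 and 3.50 in total marrow. Loxl1, the paralogue tied to elastin renewal, gave 10.68, 10.66 and 10.77 in the YFP-positive arrays, 10.80, 10.73 and 10.65 in the wild-type arrays and 4.54 and 5.52 in total marrow. Loxl3 gave 7.10, 7.74 and 7.14 in the YFP-positive arrays, 7.55, 7.998 and 7.82 in the wild-type arrays and 4.74 and 4.19 in total marrow. Sorted and control arrays did not overlap for any of these oxidases, and the 6 sorted arrays of Lox spanned 0.23. Lox differed by 6.48 ± 0.17 (SE; adjusted p = 2.21e-07) and 6.46 ± 0.17 (SE; adjusted p = 1.91e-07), a fold of 89.3 and 88.2, both lower bounds. Loxl1 differed by 5.67 ± 0.26 and 5.70 ± 0.26 and Loxl3 by 2.86 ± 0.26 and 3.32 ± 0.26 (adjusted p between 1.97e-06 and 1.08e-04), and the total-marrow arrays were themselves 0.98 apart for Loxl1. Loxl4 stayed between 3.87 and 4.51 in its higher row, its other row reached 5.39 in wild-type replicate 3 alone, and neither row was called.

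Pcolce, the enhancer that speeds removal of the collagen C-propeptide by BMP1, gave 12.04, 11.58 and 11.75 in the YFP-positive arrays, 11.55, 11.63 and 11.64 in the wild-type arrays and 4.74 and 4.73 in total marrow. The sorted arrays stood 7.06 ± 0.15 (SE; adjusted p = 1.31e-07) and 6.87 ± 0.15 (SE; adjusted p = 1.14e-07) above total marrow, a fold of 133 and 117, with both controls near the median of all values.

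Among the remaining interstitial proteins, Ecm1 and Ecm2 were called higher in both groups and Vcan and Matn2 in neither. Ecm1, a secreted glycoprotein that binds perlecan and other matrix proteins, gave 10.68, 10.49 and 10.67 in the YFP-positive arrays, 10.56, 10.27 and 10.25 in the wild-type arrays and 5.39 and 5.39 in total marrow, a difference of 5.22 ± 0.14 (SE; adjusted p = 2.21e-07) and 4.97 ± 0.14 (SE; adjusted p = 2.28e-07). Ecm2, a leucine-rich repeat matrix protein, gave 7.41, 6.33 and 6.08 in the YFP-positive arrays, 6.89, 7.16 and 7.02 in the wild-type arrays and 3.74 and 3.60 in total marrow, a difference of 2.94 ± 0.36 (SE; adjusted p = 5.75e-04) and 3.35 ± 0.36 (SE; adjusted p = 2.74e-04). Sorted and total-marrow arrays did not overlap for either gene, and the wild-type arrays of Ecm2 spanned 0.26 while its YFP-positive arrays spanned 1.33.

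Vcan, the large proteoglycan versican, gave 7.27, 6.42 and 4.97 in the YFP-positive arrays, 6.36, 6.36 and 7.16 in the wild-type arrays and 5.72 and 5.27 in total marrow. Matn2, the filament-forming matrilin-2, gave 7.24, 5.52 and 4.87 in the YFP-positive arrays, 5.29, 5.59 and 5.44 in the wild-type arrays and 4.37 and 4.23 in total marrow. YFP-positive replicate 1 was highest for both, and Vcan in YFP-positive replicate 3 fell below both controls. The YFP-positive differences from total marrow were 0.72 (95% interval −0.70 to 2.14) for Vcan and 1.58 (0.20 to 2.95) for Matn2, neither called. Without YFP-positive replicate 3 both were called higher (1.35, adjusted p = 0.0399, and 2.08, adjusted p = 0.0212). Without YFP-positive replicate 1, Matn2 was called higher in YFP-positive (0.89, adjusted p = 0.0268) and in wild-type cells (1.14, adjusted p = 0.00721). Replicate 1, with the highest Vcan and Matn2, also held the highest neutrophil (6.36) and monocyte and macrophage (5.77) marker means of the sorted arrays. The monocyte and macrophage markers split, however. Among the YFP-positive arrays Lyz2 (8.34, beside 3.67 and 4.55), Ccr2 and F13a1 were highest in replicate 1, and Csf1r, Cd68, Adgre1, Cd14 and Vcam1 were not. Wild-type replicate 3, where Vcan was 7.16, had neutrophil and monocyte and macrophage means of 3.89 and 4.81. The part of these markers in the Vcan and Matn2 values was not tested.

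The reporter-marked cells were next set against the wild-type gate. The mice behind these groups also differ in genotype, and only the reporter-marked cells were sorted on YFP. This comparison therefore cannot separate a history of Il7-driven Cre from genotype or from that sorting step. No member was called higher and none lower (0 of 37), against 0% and 0% of all rows. The smallest adjusted p over all 21789 rows was 0.068, and 3250 rows had an unadjusted p under 0.05 in limma. By that unadjusted measure 5 members passed, 13.5% of those measured against 14.9% of all rows. No member was called under any alternative run. The difference was positive in 16 of 37 members, its median was −0.03, and its 95% interval lay within 1 log2 unit of 0 for 70.3% of members, against 81.1% of all rows.

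The intervals of Tnc, Lox, Fbln5 and Pcolce lay within 1 log2 unit of 0. YFP-positive cells differed from wild type by −0.06 for Tnc (95% interval −0.43 to 0.32), by 0.02 for Lox (−0.33 to 0.37) and by −0.06 for Fbln5 (−0.45 to 0.32). Pcolce differed by 0.19 (−0.13 to 0.50). The 5 members that passed the unadjusted threshold were Fbn2 (−0.74, −1.16 to −0.32; adjusted p = 0.213), Sparcl1 (0.73, 0.24 to 1.22; 0.261), Sparc (−0.32, −0.54 to −0.09; 0.276), Thbs3 (−0.60, −1.10 to −0.11; 0.298) and Thbs1 (−0.60, −1.14 to −0.06; 0.308). Of these, the arrays of Fbn2, Sparc and Thbs3 were all lower and those of Sparcl1 all higher in YFP-positive cells, and those of Thbs1 overlapped. These genes were picked by their p-values in the same arrays, so the separation adds no support for a difference. The widest intervals belonged to Fn1 (−1.79 to 0.88), Vcan (−1.68 to 0.86) and Matn2 (−0.80 to 1.67), whose intervals contain a difference of 1 log2 unit, downward for Fn1 and Vcan and upward for Matn2.

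**Figure D3:**
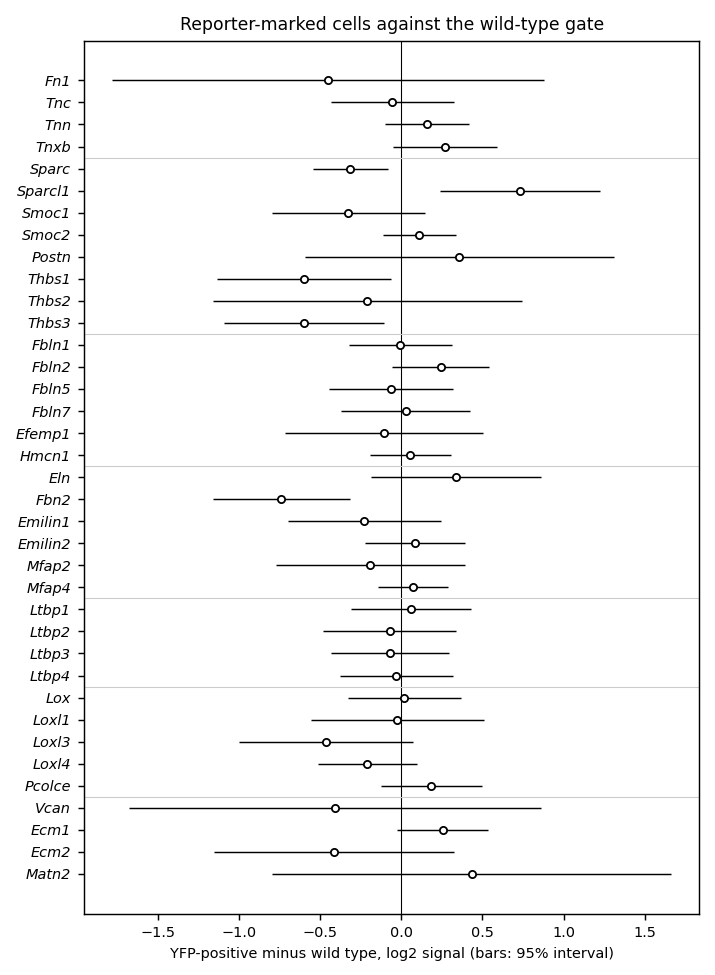
Difference in deposited log2 signal between YFP-positive and wild-type cells for the 37 measured members, with 95% intervals from limma; open points were not called. All points lie between −0.74 and 0.73, and the intervals of Fn1, Vcan and Matn2 are the widest.

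The spread within groups sets which of these differences could be resolved. In YFP-positive arrays 7 members had an SD above 0.5, against 16.4% of all rows, and the largest was that of Fn1 (1.25, n = 3). In wild-type arrays 0 members passed 0.5, against 5.5% of all rows, with Fn1 again highest (0.47, n = 3). The median SD of members was 0.222, 0.167 and 0.103 in YFP-positive, wild-type and total-marrow arrays, beside 0.215, 0.153 and 0.0977 over all rows.

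In the YFP-negative cells of the reporter mice, too, most members stood above total marrow. After cyclic loess, 27 of 37 members were called higher than in total marrow, against 13% of all rows, and 1 was called lower, against 13.2%. The lone YFP-negative sample was assumed to vary like the other groups, and its batch and its group cannot be told apart. Differences from total marrow, lower bounds for the 5 genes that follow, included 8.33 for Tnc, 7.94 for Pcolce, 7.03 for Fbln5, 6.94 for Efemp1 and 6.70 for Lox, and Emilin2 was called lower, at −3.004 ± 0.22. Of these members, 20 were called higher on the deposited values as well, where the whole array read lower. Ltbp4 (+0.92, adjusted p = 0.0283) and Matn2 (+3.36, adjusted p = 0.0171) were called higher after cyclic loess, and Ltbp4 was −0.098 on the deposited values. Ltbp4 lost its call when total-marrow replicate 1 or 2 was left out (0.83 and 1.02, adjusted p = 0.119 and 0.0634) and when wild-type replicate 2 was (0.92, adjusted p = 0.0506), and Matn2 without total-marrow replicate 1 or 2 (3.41 and 3.31, adjusted p = 0.0653 and 0.0674). Fbn2 (+1.01, adjusted p = 0.0382) lost its call without the same arrays as Ltbp4 (adjusted p = 0.126, 0.109 and 0.0596). Without single arrays of the other groups, Eln, Thbs3, Vcan and Hmcn1 came to be called higher.

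Set against the marked cells, few members differed. Against YFP-positive cells 4 members were called higher, where 2.62% of all rows were, and 1 lower, where 1.36% were. Against the wild-type gate 5 were called higher, where 3% of all rows were, and 1 lower, where 1.57% were. Sparcl1, Mfap4, Smoc2 and Fbln2 were higher in both comparisons, Ecm1 was higher against wild type, and Ltbp2 was lower in both. On the deposited values, on which the whole array read lower, Mfap4 was still called higher in both comparisons and Sparcl1 against wild type. Ltbp2 was also called lower after quantile normalization and after median centring. Fitted on only the arrays of the 2 groups compared, none of the members was called against YFP-positive cells. With replicate number as a block, Mfap4 too lost its call in both comparisons. No member called against either group kept its call under every alternative that was run.

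Mfap4 stood below the median of all loess values (4.53) in every array but the YFP-negative one: its loess value was 4.64 in the YFP-negative array, 3.16, 3.10 and 2.97 in the YFP-positive arrays, 3.02, 3.18 and 3.19 in the wild-type arrays and 3.16 and 3.18 in total marrow. It was higher by 1.56 ± 0.14 (SE; adjusted p = 0.00798) than in YFP-positive and by 1.51 ± 0.14 (SE; adjusted p = 0.00917) than in wild-type cells, and it was higher on the deposited values too, where the array as a whole read lower. Sparcl1 gave 6.53 in the YFP-negative array, 4.69, 4.34 and 5.15 in the YFP-positive arrays, 4.05, 3.996 and 4.13 in the wild-type arrays and 3.64 and 3.85 in total marrow. The YFP-negative array was thus highest, the wild-type arrays were close to total marrow, and the YFP-positive arrays lay between. Sparcl1 differed by 1.80 ± 0.28 (SE; adjusted p = 0.0236) from YFP-positive and 2.47 ± 0.28 (SE; adjusted p = 0.0129) from wild-type cells, and the former had an adjusted p of 0.0549 without total-marrow replicate 1 or 2.

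Smoc2 gave 4.60 in the YFP-negative array, 3.84, 3.95 and 3.74 in the YFP-positive arrays, 3.80, 3.83 and 3.92 in the wild-type arrays and 3.73 and 3.80 in total marrow, and Fbln2 gave 4.996 in the YFP-negative array, 4.22, 4.07 and 4.29 in the YFP-positive arrays, 4.18, 3.94 and 4.05 in the wild-type arrays and 4.03 and 4.11 in total marrow. Both genes stood above all 8 other arrays on the loess scale, Smoc2 by 0.76 ± 0.13 and 0.75 ± 0.13 (adjusted p = 0.0302 and 0.031) and Fbln2 by 0.80 ± 0.15 and 0.94 ± 0.15 (adjusted p = 0.0342 and 0.0232). On the deposited values the sign turned for both, to −0.21 and −0.10 for Smoc2 and −0.26 and −0.02 for Fbln2. Without single arrays the adjusted p of Smoc2 rose to 0.0552 and 0.059 (wild-type replicate 1 or 2) and 0.0669 (either total-marrow array) against YFP-positive cells, and to 0.0597 to 0.0796 without any single wild-type or total-marrow array against wild type. That of Fbln2 rose to 0.0521 to 0.0746 against YFP-positive cells without YFP-positive replicate 2, any wild-type or either total-marrow array, and to 0.0507 to 0.0595 against wild type without any wild-type or either total-marrow array. Ecm1 gave 11.47 in the YFP-negative array, 10.52, 10.44 and 10.81 in the YFP-positive arrays, 10.28, 9.86 and 10.03 in the wild-type arrays and 4.76 and 4.85 in total marrow, and was called against wild type (1.42 ± 0.21 SE, adjusted p = 0.02) but not against YFP-positive cells (0.88 ± 0.21; adjusted p = 0.0623). That Ecm1 call was lost without wild-type replicate 3 (1.40, adjusted p = 0.0502) and without total-marrow replicate 1 or 2 (1.42, adjusted p = 0.0511).

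Ltbp2 was the member lower in YFP-negative cells: it gave 8.90 in the YFP-negative array, 10.10, 10.42 and 10.08 in the YFP-positive arrays, 9.91, 9.78 and 10.28 in the wild-type arrays and 3.78 and 3.61 in total marrow. The array lay below all 6 other sorted arrays and far above total marrow. The difference was −1.30 ± 0.23 (SE; adjusted p = 0.0304) from YFP-positive and −1.09 ± 0.23 (SE; adjusted p = 0.046) from wild-type cells, with adjusted p of 0.0552 to 0.0661 against YFP-positive without wild-type replicate 1 or a total-marrow array. Against wild type the adjusted p was 0.0522 to 0.0934 and the difference −1.20 to −0.95 without YFP-positive replicate 1, any wild-type array or either total-marrow array.

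**Figure D4:**
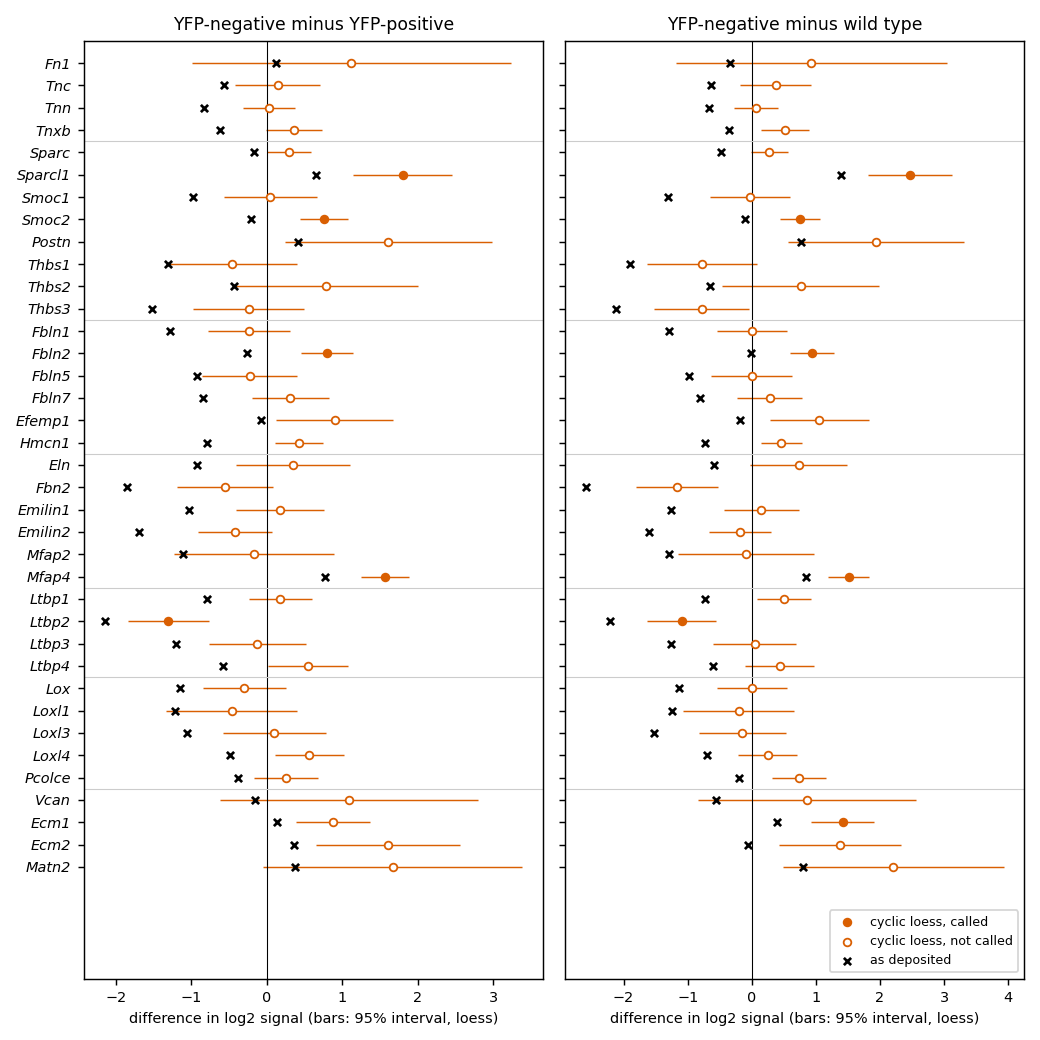
Difference in log2 signal of the YFP-negative array from YFP-positive (left) and wild-type (right) cells for the 37 measured members; orange points with 95% intervals are after cyclic loess, filled where called by limma, and black crosses are the deposited values. The crosses lie left of the points, and Mfap4, Sparcl1, Ecm1, Postn and Matn2 are right of 0 on both scales in both panels.

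Several members differed by more than 1 log2 unit in this array after cyclic loess without being called. The whole array read lower on the deposited values. There Ecm2 was 6.97, below the wild-type mean of 7.02 and above the YFP-positive mean of 6.61. Deposited Matn2 was 6.24, beside means of 5.87 (YFP-positive) and 5.44 (wild type), and Postn 5.38, beside 4.97 and 4.61. All of these gaps were narrower than after cyclic loess. On the loess scale, Postn was 1.61 above YFP-positive and 1.94 above wild type (95% intervals 0.24 to 2.98 and 0.57 to 3.31). Ecm2 was 1.61 and 1.37 above (0.66 to 2.56 and 0.42 to 2.32), and Matn2 1.67 and 2.21 above (−0.05 to 3.38 and 0.49 to 3.93). Fbn2 was −1.16 against wild type (−1.80 to −0.53; adjusted p = 0.0586). For Lox the difference was −0.30 from YFP-positive (−0.85 to 0.25) and 0.00 from wild type (−0.55 to 0.55). Leaving out YFP-positive replicate 1 brought calls for Ecm2 (1.98 and 1.37, adjusted p = 0.00524 and 0.0105) and Matn2 (2.33 and 2.21, adjusted p = 0.0127 and 0.0122) in both comparisons, and for Fbn2 (−1.16, adjusted p = 0.0451) and Postn (1.94, adjusted p = 0.0484) against wild type. Leaving out YFP-positive replicate 2 brought a call for Postn in both (2.06 and 1.94, adjusted p = 0.0443 and 0.0409) and for Pcolce against wild type (0.73, adjusted p = 0.0437), and leaving out YFP-positive replicate 3 one for Ecm1 against YFP-positive (0.99, adjusted p = 0.0399).

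Hmcn1 showed a pattern its highest row does not carry. Of its 77 rows, 72 stood below 4.43 in every array. In the YFP-negative array 3 rows, singled out after their values were seen, read 5.20, 4.77 and 5.03 as deposited. The other 8 arrays gave 2.70 to 2.84, 2.76 to 2.96 and 2.84 to 3.27 for these rows. After cyclic loess these 3 rows lay 3.16, 2.68 and 2.64 above YFP-positive cells, and the next lay 1.15 above. Among the 77, the YFP-negative array was called higher in 7 rows relative to YFP-positive cells and in 6 relative to the wild-type gate, where 2.62% and 3% of all rows were. Relative to total marrow 9 of the 77 were called higher and 1 lower, where 13% and 13.2% of all rows were, a share of Hmcn1 rows no higher than the background.

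Markers of fibroblasts around vessels and endosteum moved with the YFP-negative array. After cyclic loess all 7 measured stood higher in this 1 array than the mean of YFP-positive and of wild-type cells, where 50.4% of all rows did in either comparison. The median differences were 1.78 and 1.75. Against total marrow 5 of the 7 stood higher. Thy1 (6.37, beside a mean of 7.78) and Pi16 (4.86, beside 6.21) stood lower. Their mean loess level was 6.24 in the YFP-negative array, 4.32 to 4.45 in the YFP-positive, 4.27 to 4.81 in the wild-type and 5.57 to 5.64 in the total-marrow arrays. None of 10 reticular markers was called between YFP-negative and either sorted group, and their mean loess level was 10.5 there, beside 10.6 to 10.7 and 10.3 to 10.5. Il7 itself had a loess level of 7.03 in the YFP-negative array. Its level was 6.49 to 7.78 across the YFP-positive arrays, 7.32 to 7.78 across those of the wild-type gate and 2.93 to 3.06 in total marrow. The YFP-negative value thus lay within the YFP-positive range and below that of the wild-type gate. The part of the fibroblast markers in the member differences was not tested.

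Other matrix glycoproteins, a list of 39 genes with 37 measured, moved in part with the members. In YFP-positive cells 13 were called higher than total marrow and 3 lower (35.1% and 8.11%, beside 11% and 18.5% of all rows), and in wild-type cells 15 and 3 (40.5% and 8.11%, beside 10.4% and 13.9%), with median differences of 0.35 and 0.49. Fstl1, a secreted SPARC relative, was 7.20 and 7.56 above total marrow, Abi3bp 6.28 and 6.63, Igfbp7 6.04 and 6.28, and Svep1 5.04 and 4.90. Tgfbi, an integrin-binding matrix protein also made by macrophages, was lower, at −2.50 and −2.23. None was called between YFP-positive and wild-type cells, where 13 had an unadjusted p under 0.05 in limma. After cyclic loess the largest differences of the YFP-negative array from YFP-positive and wild-type cells in this list were those of relatives of members. They were Mfap5 (+4.78 and +3.51), Thbs4 (+3.68 and +3.46) and Pcolce2 (+3.33 and +3.12). These values rest on 1 YFP-negative array, and Mfap5 spread among the wild-type arrays, at 4.07, 4.55 and 6.35.

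The receptors and ligands of these proteins were measured for 16 genes. Against total marrow 8 were called higher and 3 lower in YFP-positive cells (50% and 18.8%, beside 11% and 18.5% of all rows), and 9 and 3 in wild-type cells (56.2% and 18.8%, beside 10.4% and 13.9%). The integrin subunit Itgav, which pairs to bind fibronectin, fibrillin and latent TGF-beta, was 2.61 and 2.71 above, and Itga9, a tenascin-C receptor subunit, 1.88 and 2.73. The TGF-beta ligands split: Tgfb3 was 3.82 and 4.13 and Tgfb2 1.45 and 2.16 above total marrow, all lower bounds, and Tgfb1 was lower, at −2.79 and −1.70. Itga4, the fibronectin receptor subunit of blood cells, was −5.10 and −5.17. None of the 16 was called between YFP-positive and wild-type cells (4 at an unadjusted p under 0.05), and in the YFP-negative array Itga5 (+1.43) and Cd47 (+0.95) were called higher than in YFP-positive cells. Against the wild-type gate the YFP-negative array had 0 of 16 called (5 at an unadjusted p under 0.05 in limma).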

How the data were processed

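The authors' deposited table holds log2 signals, 1 per transcript cluster and array; per the submitters' processing notes they were made with Affymetrix Expression Console 1.3.1 and RMA, and per the labels' protocols amplification used the NuGEN Ovation Pico WTA kit. Whether all arrays were summarised together and the genome build are not given in the sources used here. Of 35556 rows, the 21789 with 1 gene symbol were tested. Rows with several symbols (1621) or none (12146) were left out. Comparisons without the YFP-negative array used deposited values; those with it used cyclic loess over the 9 arrays.

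limma 3.58.1 (R 4.3.3) fitted a mean per group to all 9 arrays (5 residual degrees of freedom), with empirical Bayes tests, two-sided, and Benjamini-Hochberg adjustment over all tested rows. Precision is limited by the number of arrays. The code was tested on simulated data. The members, the other lists and the choice of cyclic loess were made with earlier results of these data known. All 39 members were accounted for, each by its row with the highest mean; values per array are given for members called in a comparison or moving against their role group, and up to 4 called genes of each other list are named by the size of change. Alternatives covered scaling, a filter on dim rows, an intensity trend, array weights, replicate number as a block, fits on 2 groups, and leaving out each array.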

Additional observations from a re-analysis of the deposited data

How the results depend on the processing

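Against total marrow, members called higher numbered 20 to 24 in YFP-positive and 20 to 22 in wild-type cells when any array was left out. Members called lower in YFP-positive cells fell from 2 to 1 after cyclic loess, after quantile normalization and with only the arrays of both groups (1 to 2 without single arrays), since Fn1 lost its call. In wild-type cells they went from 1 to 2 with array weights, with the replicate block and with only the arrays of both groups (1 to 2 without single arrays). Calls over all rows ranged without single arrays from 3636 to 6622 (6422 with all arrays) for YFP-positive and from 3398 to 5980 (5291) for wild-type cells, lowest without total-marrow replicate 1. Between YFP-positive and wild-type cells they ranged from 0 to 26, the latter without YFP-positive replicate 1, and were 9 with an intensity trend.

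The YFP-negative comparisons depended on the scaling. Mfap4, Smoc2 and Fbln2 passed the median of all loess values only in the YFP-negative array. The filter on dim rows therefore left them out, and they were not tested under it. Members called higher against YFP-positive cells (4) numbered 1 on deposited values, 1 with the filter on dim rows, 0 with only the arrays of both groups and 1 to 6 without single arrays; those lower (1) numbered 22 on deposited values, 0 with only the arrays of both groups and 0 to 1 without single arrays. Against wild type, those higher (5) numbered 2 on deposited values, 8 after median centring, 2 with the dim filter, 9 with array weights and 2 to 8 without single arrays; those lower (1) numbered 22 on deposited values, 2 after quantile normalization, 2 after median centring, 0 with the dim filter, 0 with the trend, 2 with array weights, 0 with only the arrays of both groups and 0 to 1 without single arrays. Against total marrow those lower (1) numbered 4 on deposited values and 2 with only the arrays of both groups, and those higher 24 to 29 without single arrays. Calls over all rows went from 867, 994 and 5719 with cyclic loess to 16522, 16353 and 15666 on deposited values (against YFP-positive, wild type and total marrow), 1683, 1720 and 6200 after quantile normalization, and 2512, 4458 and 8987 after median centring. The filter on dim rows gave 479 and 488 against the sorted groups, array weights gave 2091 against wild type, and only the arrays of both groups gave 0, 264 and 8885. Of the calls after cyclic loess against YFP-positive 65.7% were higher, against 0.611% on deposited values, 57.8% after quantile normalization and 74.5% after median centring.

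On the deposited values, where the median of all rows shifted by −0.91, −0.88 and −0.85, members that changed sign included those below. The lists are not complete. Over all 4 scalings the sign was not the same throughout for 21, 22 and 11 members, in the same order. Against YFP-positive: Tnn −0.83, Tnxb −0.62, Smoc1 −0.98, Smoc2 −0.21, Fbln2 −0.26, Fbln7 −0.84, Eln −0.93, Emilin1 −1.03, Ltbp1 −0.79, Ltbp4 −0.58, Loxl3 −1.05, Loxl4 −0.48, Hmcn1 −0.79. Against wild type: Tnc −0.63, Tnn −0.67, Sparc −0.48, Smoc2 −0.10, Fbln1 −1.29, Fbln2 −0.019, Fbln7 −0.81, Emilin1 −1.25, Ltbp1 −0.73, Ltbp3 −1.27, Ltbp4 −0.61, Loxl4 −0.70, Hmcn1 −0.73. Against total marrow: Tnn −0.62, Tnxb −0.0065, Smoc2 −0.0034, Fbln2 −0.0068, Fbn2 −0.43, Ltbp4 −0.098, Hmcn1 −0.71.

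The deviations of same-numbered replicates from their group means had correlations of −0.08 to 0.06. Group means of so few arrays constrain these correlations, so they cannot show whether same-numbered arrays share an animal, day or batch. The labels do not say what the replicate numbers mean. With the replicate block, members called against YFP-positive were 0 higher and 0 lower, and against wild type 0 higher and 0 lower, with 5 and 6 calls over all rows. The cause of these shifts was not tested.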
